A study of Mus musculus with 4 samples.

Results

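Cell cycle and DNA replication genes were examined in 4 RNA-seq libraries labelled as mouse myeloid cells. They are 57 of the 24706 genes in the files, chosen by gene symbol for their known role, although earlier results of these data were known. By role, 22 act in DNA replication, 25 in mitosis and 10 regulate G1 and the entry into S phase. Of the 57 genes, 56 had a mean of at least 1 FPKM (counted reads scaled by gene length and library size) and were tested, and Fen1 was not.

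The study asked how loss of PD-1, an inhibitory receptor, in myeloid cells affects brain development. Libraries wt1 and wt2, with the genotype label wt, are from control mice, which the study's figures give as PD-1f/f and its methods as wild-type. Libraries cko1 and cko2, with the genotype label cko, stand for the PD-1f/f; LysM-Cre genotype. In the floxed allele LoxP sites flank an exon of Pdcd1, the PD-1 gene, and the LysM-Cre allele drives Cre recombinase from the Lyz2 locus in myeloid cells, including granulocytes, monocytes and macrophages. The source is CD11b+ cells sorted from postnatal day 3 liver in the study's results and livers of postnatal day 2 in its methods. Nothing states that the 2 libraries of a genotype come from separate mice, so that p-values measure only the spread between these libraries.

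In the check of the labels, Pdcd1 was at 28.5 and 34.7 FPKM in wt1 and wt2, and at 17.1 and 21.4 FPKM in cko1 and cko2 (log2 difference -0.69, SE 0.19, adjusted p = 0.218 in limma). Lyz2, the locus that holds Cre, was at 31306 and 32147 FPKM in the wt libraries and at 10422 and 8127 FPKM in the cko libraries (log2 difference -1.79, SE 0.18, adjusted p = 0.183). The libraries held 17691505 to 22212407 counted reads. Summed markers of early neutrophil precursors (8 genes, among them Mpo, Elane and Prtn3) were at 1851 and 1924 FPKM in wt1 and wt2, 2614 FPKM in cko1 and 1992 FPKM in cko2, with 2 of 8 higher and 0 lower at an unadjusted p under 0.05. Those of late neutrophils (11 genes, among them S100a8, S100a9 and Camp) were at 161036 and 136971 FPKM in wt1 and wt2, and at 110237 and 91586 FPKM in cko1 and cko2, with 2 of 11 higher (Cxcr2 and Lcn2) and 6 lower. This sum is carried by a few very abundant genes. Erythroid markers, which myeloid cells lack, summed to 3816 and 2401 FPKM in the wt libraries and to 1466 and 1567 FPKM in the cko libraries, with 0 of 15 tested markers higher and 8 lower at an unadjusted p under 0.05. Beside these counts, 11.4% of all tested genes were higher and 4.95% lower at the same threshold. No marker of these 3 lists was at 0 in all libraries, but this holds for every gene in the files. In such bulk samples, fewer cells of a type and less RNA per cell cannot be told apart.

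As background, a dividing cell first loads the Mcm2 to Mcm7 helicase onto replication origins, then fires the origins and copies its DNA in S phase, and finally condenses and separates its chromosomes in mitosis. The genes for these steps are switched on in waves. The G1/S wave, with the Mcm genes and the enzymes that make deoxynucleotides, is driven by E2F factors, and the later wave, with mitotic cyclins, kinases and spindle proteins, by the MuvB complex with B-MYB and FOXM1, which reaches its genes through an element named CHR, often beside CCAAT boxes bound by NF-Y. In the neonatal liver and marrow, neutrophil precursors divide up to the myelocyte stage and then leave the cycle, whereas erythroid precursors divide through most of their maturation.

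Elements of these waves are found in part of the promoters of each class. As examples that hold them, 8 promoters are shown, because their genes stand for origin licensing, primer synthesis and deoxynucleotide supply on one side and for mitosis on the other. The sequences are from RefSeq (GRCm38.p6) and hold the 150 bases before the RefSeq start site, 5′ to 3′ on the strand of the gene. By the gene positions in the files Cdc6 starts at 98907801, so that its whole window lies inside the gene as positioned there. The windows of Cdk1, Cdc20 and Prim1 lie partly inside their genes. Capitals mark the letters of the CHR core (TTTGAA), of the E2F core (GCGGGAA) and of the CCAAT box, on either strand. The CHR core reads TTCAAA when it lies on the other strand. The E2F core then reads TTCCCGC. In that orientation the CCAAT box reads ATTGG. In the Prim1 window the E2F core and a CCAAT box overlap.
Cdk1, chr10:69352913-69353062, minus strand: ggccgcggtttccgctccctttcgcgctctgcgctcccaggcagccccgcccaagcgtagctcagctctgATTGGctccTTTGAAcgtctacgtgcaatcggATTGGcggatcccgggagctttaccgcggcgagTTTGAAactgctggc
Cdc20, chr4:118437344-118437493, minus strand: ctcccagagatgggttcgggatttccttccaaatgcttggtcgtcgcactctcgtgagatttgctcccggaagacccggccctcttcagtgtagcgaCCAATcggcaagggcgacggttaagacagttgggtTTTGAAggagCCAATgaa
Mki67, chr7:135716380-135716529, minus strand: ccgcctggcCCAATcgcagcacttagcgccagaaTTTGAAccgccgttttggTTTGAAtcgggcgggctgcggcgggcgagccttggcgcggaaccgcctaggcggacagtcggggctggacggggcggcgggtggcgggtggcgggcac
Top2a, chr11:99024190-99024339, minus strand: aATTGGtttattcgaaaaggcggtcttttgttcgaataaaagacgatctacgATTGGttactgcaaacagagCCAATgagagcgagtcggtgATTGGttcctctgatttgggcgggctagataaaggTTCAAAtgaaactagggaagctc
Cdc6, chr11:98908001-98908150, plus strand: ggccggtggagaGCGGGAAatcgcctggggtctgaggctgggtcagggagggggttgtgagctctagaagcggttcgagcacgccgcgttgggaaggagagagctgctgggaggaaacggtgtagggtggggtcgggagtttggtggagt
Rrm1, chr7:102441545-102441694, plus strand: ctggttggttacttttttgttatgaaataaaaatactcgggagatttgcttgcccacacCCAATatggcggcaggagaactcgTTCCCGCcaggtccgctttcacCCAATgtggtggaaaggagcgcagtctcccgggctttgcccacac
Prim1, chr10:128015065-128015214, plus strand: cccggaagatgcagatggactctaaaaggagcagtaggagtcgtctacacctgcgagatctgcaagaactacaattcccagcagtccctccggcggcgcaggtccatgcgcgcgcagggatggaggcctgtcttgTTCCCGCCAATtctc
Pola1, chrX:93632156-93632305, minus strand: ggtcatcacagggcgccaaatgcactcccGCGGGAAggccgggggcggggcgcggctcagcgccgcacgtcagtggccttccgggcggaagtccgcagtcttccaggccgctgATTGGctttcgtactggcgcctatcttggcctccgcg

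Over whole promoters of 250 bases before to 50 bases after the start, 52 promoters of 45 of the 57 genes were matched by symbol. The CHR core was in 12 of the 18 mitosis promoters (66.7%) and in 3 of the 23 replication promoters (13.04%), beside 17.9% of all 32851 promoters and 12.6% of those of tested genes. The E2F core was in 9 of the 23 replication promoters (39.1%) and in 0 of the 18 mitosis promoters, beside 4.60% of all promoters and 8.50% of those of tested genes. The CCAAT box was in 16 of the 18 mitosis promoters (88.9%) and 13 of the 23 replication promoters (56.5%), beside 37.4% of all promoters. The CHR core was thus found mainly in the mitosis class and the E2F core in the replication class, while the CCAAT box was frequent in both. A match of letters is a description and not a bound site, and its absence says only that these letters are not in this window.

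Proliferation genes were well expressed in all 4 libraries. The median of the mean FPKM over the 56 tested genes was 25.4, compared with 5.67 over all 10779 tested genes, and the genes lay between the 30.4 and 97.7 percentiles of all tested genes. Of the 56 genes, 49 had at least 500 reads in every library. Mean levels, per length, were highest for Cdc20 (173 FPKM), the activator of the anaphase-promoting complex, Ccnd3 (117 FPKM), the D-type cyclin of neutrophil precursors and other blood cells, and Birc5 (111 FPKM), the survivin subunit of the chromosomal passenger complex. They were lowest for Gins2 (2.95 FPKM), E2f1 (3.27 FPKM) and Cdkn2c (3.45 FPKM). Levels of Pcna, Stmn1, Tyms, Ccnb1, Ccnb2 and Ccnd3 are uncertain, because GENCODE M21 holds processed pseudogenes named after these genes, and how the counting treated reads that fit both was not tested. Exons of another gene cover 12.5% to 84.2% of the exonic bases of Ccna2, Mcm7, Cdc25c, Rfc4, Ccne2, Cdk4, Ube2c, Kif20a, Gins2 and Fen1, and without the strand setting of the counting their values are uncertain as well.

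Against the wt libraries, 10 of 12 origin licensing and helicase genes had a positive difference in the cko libraries and 11 of 14 spindle and segregation genes a negative difference, while 60.4% of all tested genes had a positive one. Most differences were small, and no gene of the 57 had an adjusted p under 0.05. The licensing count was 10 of 12 after median-of-ratios and after quantile scaling. It was 12 of 12 after removal of erythroid and hepatocyte markers with rescaling of each library to the same FPKM sum. The spindle count depended on the scaling, with 13 of 14 negative after median-of-ratios or quantile scaling and 1 of 14 after the marker removal, when 77.4% of all genes had a positive difference. At an unadjusted p under 0.05 in limma, 2 of the 56 genes were higher in cko (Cdkn1a and Mcm4, 3.57%) and 3 were lower (Rfc4, Nusap1 and Cdk1, 5.36%). The background over all 10779 genes was 11.4% higher and 4.95% lower, so that the share of these genes was below the background in the first direction and close to it in the second. None of them passed a log2 difference above 1 with an unadjusted p under 0.01, as 2.29% of all genes did, or a log2 difference of at least 1 with an adjusted p under 0.05, as 0.0% did. The smallest adjusted p was 0.214 among the 56 genes and 0.129 among all genes. The count of 5 genes depended on single libraries, since it was 0 without wt replicate 1 and 7 without cko replicate 2. After median-of-ratios or quantile scaling the 5 genes held E2f1, lower in cko, in place of Mcm4. Of the 56 genes, 51 differed by less than 0.5 on the log2 scale.

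**Figure D1:**
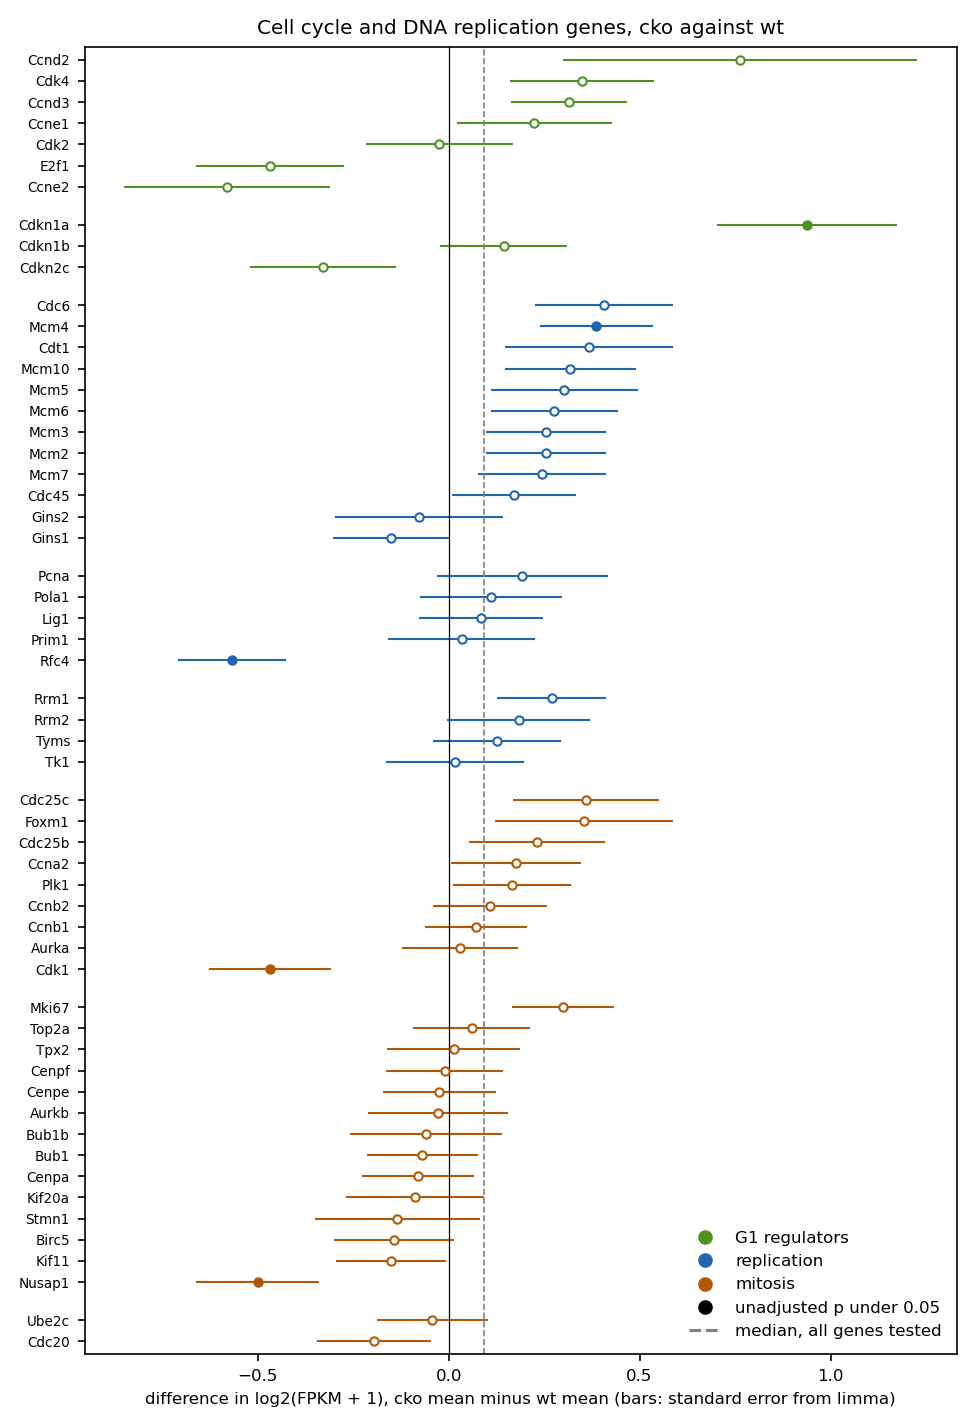
Difference in log2(FPKM + 1) between the mean of 2 cko and the mean of 2 wt libraries for the 56 tested genes, by role, with the standard error from limma. Filled points are the 5 genes with an unadjusted p under 0.05, and the dashed line is the median of all tested genes (0.09).

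Of the G1 regulators, the largest difference was in Cdkn1a, the p53 target that encodes the CDK inhibitor p21. It was at 11.0 FPKM in wt1, 11.4 FPKM in wt2, 17.8 FPKM in cko1 and 28.0 FPKM in cko2. Both cko libraries were above both wt libraries, by a log2 difference of 0.94 (SE 0.24, unadjusted p = 0.00856, adjusted p = 0.214). The other CDK inhibitors had smaller differences, of opposite signs. Cdkn1b, which encodes p27, was at 9.15 and 10.9 FPKM in wt and at 11.0 and 11.3 FPKM in cko (log2 difference 0.14, SE 0.17, adjusted p = 0.689). Cdkn2c, which encodes p18, an inhibitor of Cdk4 and Cdk6, was at 3.74 and 4.17 FPKM in wt and at 2.70 and 3.20 FPKM in cko (log2 difference -0.33, SE 0.19, adjusted p = 0.432).

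The drivers of G1 and S entry had differences of both signs, and none had an unadjusted p under 0.05. D-type cyclins bind Cdk4 and start the inactivation of the retinoblastoma protein, which holds E2F factors in check. Ccnd3 was at 103 and 106 FPKM in wt and at 143 and 118 FPKM in cko (log2 difference 0.32, SE 0.15, adjusted p = 0.363), and Cdk4 at 18.3 and 13.9 FPKM in wt and at 19.4 and 21.9 FPKM in cko (log2 difference 0.35, SE 0.19, adjusted p = 0.404). The groups did not overlap in either gene, but 19.7% of the exonic bases of Cdk4 overlap a gene on the opposite strand. Ccnd2, a cyclin that responds to growth factors, was at 1.83 and 2.34 FPKM in wt, 2.22 FPKM in cko1 and 7.49 FPKM in cko2. Only cko2 was high, and the log2 difference of 0.76 had an SE of 0.46, the largest among the 56 genes.

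Cyclin E, the partner of Cdk2 at the start of S phase, is encoded by a pair of genes whose differences had opposite signs. Ccne1 was at 15.3 and 19.4 FPKM in wt and at 23.2 and 17.8 FPKM in cko, with overlapping groups (log2 difference 0.22, SE 0.20, adjusted p = 0.603). Ccne2 was at 36.0 FPKM in wt1, 21.3 FPKM in wt2, 16.7 FPKM in cko1 and 19.8 FPKM in cko2 (log2 difference -0.58, SE 0.27, adjusted p = 0.351). Its groups did not overlap, but wt1 was far above wt2, and 17.4% of its exonic bases overlap another gene. E2f1, the activator of G1/S genes, was at 3.73 and 4.19 FPKM in wt and at 2.79 and 2.38 FPKM in cko (log2 difference -0.47, SE 0.19, unadjusted p = 0.0546, adjusted p = 0.313), so that it was lower in both cko libraries while most replication genes were not. Cdk2 was at 34.6 and 33.7 FPKM in wt and at 39.4 and 28.5 FPKM in cko, with overlapping groups.

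In the replication class, 18 of 21 tested genes had a positive difference, compared with 60.4% of all tested genes, and the median was 0.19 on the log2 scale, compared with 0.09 over all tested genes. After median-of-ratios scaling 15 of 21 were positive, compared with 49.1% of all genes. The 6 subunits of the Mcm2 to Mcm7 helicase, which form a hexamer with a copy of each, differed by 0.24 to 0.39 on the log2 scale, with a median of 0.27. Mcm5, at a mean of 67.0 FPKM, and Mcm3, at 58.8 FPKM, had the highest levels of the 6, and Mcm4, at 20.9 FPKM, had the lowest. In all 6, both cko libraries were above both wt libraries, compared with 33.6% of all tested genes.

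Mcm4 was at 18.9 FPKM in wt1, 17.0 FPKM in wt2, 24.3 FPKM in cko1 and 23.3 FPKM in cko2 (log2 difference 0.39, SE 0.15, unadjusted p = 0.0431, adjusted p = 0.289). In this subunit both cko libraries were about equally far above wt. In Mcm5 the libraries were at 61.3, 57.7, 86.7 and 62.4 FPKM in wt1, wt2, cko1 and cko2 (log2 difference 0.30, SE 0.19, adjusted p = 0.460), and in Mcm2 at 22.6, 23.1, 29.98 and 25.2 FPKM (log2 difference 0.26, SE 0.16, adjusted p = 0.449). Here cko1 was high and cko2 only just above the wt libraries, and the same held for Mcm3, Mcm6 and Mcm7. The median of the 6 genes was above the wt mean by 0.41 in cko1 and by 0.11 in cko2 on the log2 scale, whereas the median of all genes was above it by 0.09 in each. After median-of-ratios scaling, which lowers the median of all genes from 0.09 to -0.01, the 6 differences stayed positive with a median of 0.15, but only Mcm2 and Mcm4 still separated the groups.

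The high level in cko1 accompanied a high sum of the early neutrophil markers, given above as 2614 FPKM in cko1 and 1851 to 1992 FPKM in the other libraries, and its part in the result was not tested. Markers of erythroid cells, another dividing cell type of this organ, were lower in both cko libraries. They were removed together with hepatocyte markers, and each library was rescaled to the same FPKM sum. After this, 15 of the 56 genes had an unadjusted p under 0.05 in limma, all higher in cko. FPKM sums over all genes were 491983 and 457127 in wt1 and wt2, and 412778 and 403900 in cko1 and cko2. The removed markers were a small part of them (erythroid 1466 to 3816 FPKM, hepatocyte 64.4 to 151 FPKM). The change therefore came mainly from setting the sums equal. That rescaling also raised the median of all genes to 0.27 and that of the Mcm genes to 0.47.

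**Figure D2:**
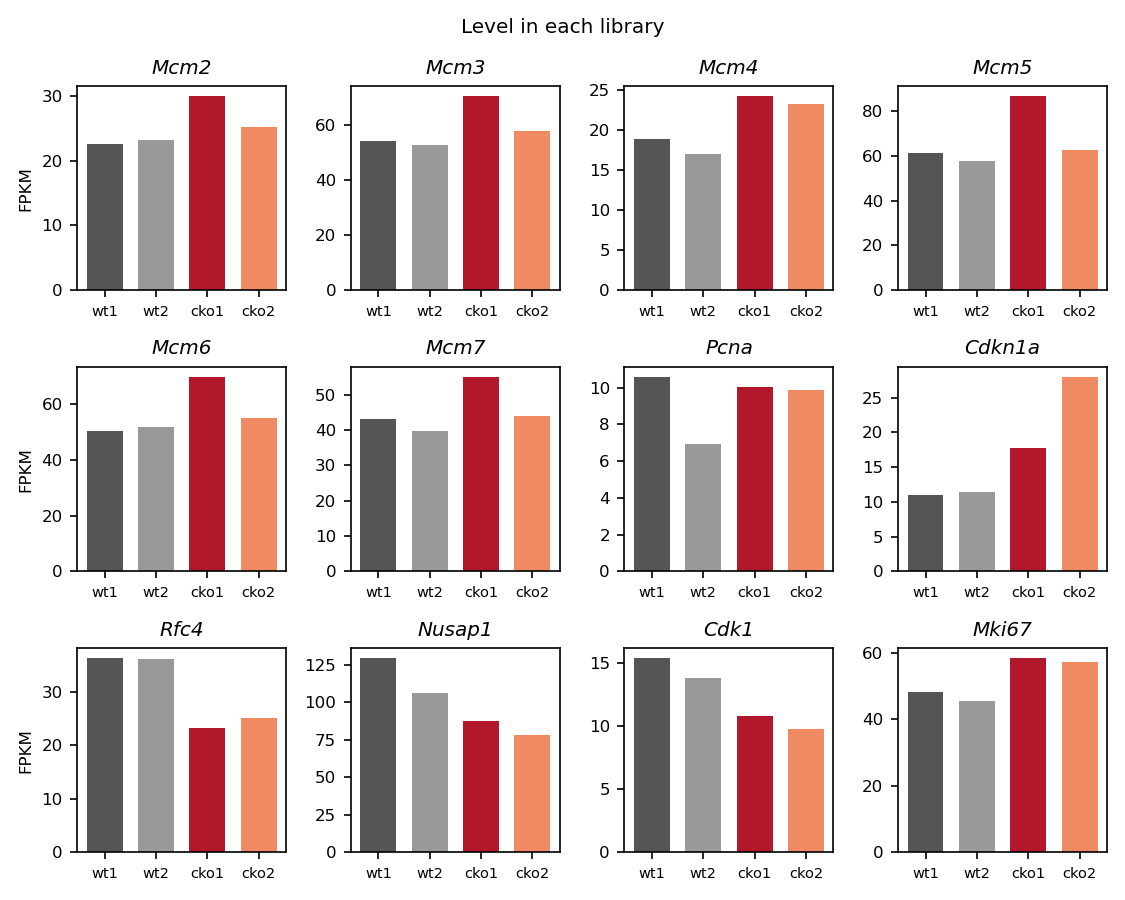
FPKM of 12 genes in each of the 4 libraries, with bars from 0 and a scale of its own for each gene. In Mcm2 to Mcm7 both cko bars are above both wt bars, with cko1 highest, in Cdkn1a cko2 is highest at 28.0 FPKM, and Rfc4, Nusap1 and Cdk1 are lower in both cko libraries.

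Of the other licensing genes, none had an unadjusted p under 0.05. Cdc6, which loads the helicase with Cdt1, had the largest positive difference of the replication class, with 11.0 and 14.1 FPKM in wt and 17.6 and 16.1 FPKM in cko (log2 difference 0.41, SE 0.18, adjusted p = 0.339). Cdt1 was at 14.6 and 19.7 FPKM in wt and at 25.5 and 19.2 FPKM in cko, with overlapping groups. Mcm10, needed to start the helicase, and Cdc45, its subunit in the active form, were higher in both cko libraries by 0.32 (SE 0.17) and 0.17 (SE 0.16). The GINS subunits of the same active helicase did not follow. Gins1 was at 14.1 and 15.1 FPKM in wt and at 12.5 and 13.6 FPKM in cko (log2 difference -0.15, SE 0.15, adjusted p = 0.643), and Gins2, of whose exonic bases 67.3% overlap another gene, had a log2 difference of -0.08 (SE 0.22).

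At the replication fork, Rfc4, a subunit of the clamp loader that places PCNA on DNA, had the largest difference. It was at 36.4 FPKM in wt1, 36.2 FPKM in wt2, 23.2 FPKM in cko1 and 25.2 FPKM in cko2. The replicates lay close together and the groups far apart (log2 difference -0.57, SE 0.14, unadjusted p = 0.00806, adjusted p = 0.214), the smallest unadjusted p of the 56 tested genes, although 12.7% of its exonic bases overlap another gene. Pcna, the sliding clamp itself, was at 10.6 and 6.93 FPKM in wt and at 10.03 and 9.89 FPKM in cko (log2 difference 0.19, SE 0.22, adjusted p = 0.690). Its wt libraries enclosed both cko libraries, and without wt replicate 2 the difference was -0.08. The DNA polymerase alpha and primase subunits Pola1 and Prim1 and the ligase Lig1 had overlapping groups and log2 differences between 0.03 and 0.11. Fen1, the flap endonuclease of lagging-strand synthesis, had 0 reads in both wt libraries, 5 reads in cko1 and 2 in cko2. Other annotated genes on the opposite strand cover 84.2% of its exonic bases, and what this did to its count was not tested.

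Of the enzymes of deoxynucleotide supply, Rrm1, the large subunit of ribonucleotide reductase, was at 39.9 and 39.6 FPKM in wt and at 50.9 and 45.4 FPKM in cko, with groups that did not overlap (log2 difference 0.27, SE 0.14, adjusted p = 0.395). Its partner Rrm2 was at 40.2 and 35.7 FPKM in wt and at 49.7 and 37.5 FPKM in cko (log2 difference 0.18, SE 0.19). Tyms, thymidylate synthase, and Tk1, thymidine kinase, had differences of 0.13 (SE 0.17) and 0.02 (SE 0.18). In all 4 genes cko1 was above cko2, and only in Rrm1 did the groups separate.

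The mitosis class had no common direction in the values as deposited. Of its 25 genes, 11 had a positive difference, the median was -0.02 on the log2 scale, and 0 genes were higher and 2 lower at an unadjusted p under 0.05. The sign count depended on the scaling. After median-of-ratios scaling 6 of 25 were positive, beside 49.1% of all genes, and after quantile scaling 7 of 25, beside 47.7%. After the marker removal 23 of 25 were positive, beside 77.4% of all genes. In the group of mitotic entry 8 of 9 genes had a positive difference, and Cdk1 was the exception. The count holds for the values as deposited, and was 5 of 9 after median-of-ratios scaling and 6 of 9 after quantile scaling. Cdk1, the kinase that drives mitosis, was at 15.4 FPKM in wt1, 13.8 FPKM in wt2, 10.8 FPKM in cko1 and 9.77 FPKM in cko2 (log2 difference -0.47, SE 0.16, unadjusted p = 0.0282, adjusted p = 0.260). Both cko libraries were below both wt libraries. Its cyclin partners were not. Ccna2 was at 28.7 and 24.1 FPKM in wt and at 32.5 and 27.5 FPKM in cko (log2 difference 0.18, SE 0.17, adjusted p = 0.630), and Ccnb1 at 55.9 and 53.8 FPKM in wt and at 58.7 and 56.7 FPKM in cko (log2 difference 0.07, SE 0.13, adjusted p = 0.814).

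Cdc25c, a phosphatase that activates Cdk1, had the largest positive difference of mitotic entry, with 24.1 and 22.1 FPKM in wt and 34.8 and 25.7 FPKM in cko (log2 difference 0.36, SE 0.19, adjusted p = 0.400). Foxm1, the transcription factor of mitotic genes, was at 4.08 and 4.93 FPKM in wt, 7.36 FPKM in cko1 and 4.89 FPKM in cko2 (log2 difference 0.36, SE 0.23, adjusted p = 0.473), so that only cko1 was high. Plk1, a kinase of mitotic entry and spindle assembly, was at 27.1 and 27.5 FPKM in wt and at 33.6 and 28.2 FPKM in cko (log2 difference 0.17, SE 0.16, adjusted p = 0.617). Aurka, Ccnb2 and Cdc25b had differences between 0.03 and 0.23.

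Among the 14 genes of the spindle and of chromosome segregation, 11 had a negative difference. Nusap1, which binds and bundles spindle microtubules, was at 130 FPKM in wt1, 106 FPKM in wt2, 87.8 FPKM in cko1 and 78.0 FPKM in cko2 (log2 difference -0.50, SE 0.16, unadjusted p = 0.0236, adjusted p = 0.251). Both cko libraries were below both wt libraries. The other negative differences of this group lay between -0.15 and -0.01, and of them only those of Kif11, a motor of the bipolar spindle, and Bub1, a kinase of the spindle checkpoint, came with groups that did not overlap. Mki67, which encodes the Ki-67 proliferation antigen, had a positive difference, with 48.2 and 45.6 FPKM in wt and 58.5 and 57.4 FPKM in cko (log2 difference 0.30, SE 0.13, unadjusted p = 0.0704, adjusted p = 0.341). Top2a, the topoisomerase that untangles sister chromatids and the other usual proliferation marker, was at 65.3 and 57.5 FPKM in wt and at 68.6 and 59.5 FPKM in cko. Its difference was 0.06 (SE 0.15) as deposited and -0.06 after median-of-ratios scaling, so that its sign depended on the scaling. Tpx2, a spindle assembly factor, had a difference of 0.01 (SE 0.17). Stmn1, a microtubule destabiliser, was at 110 and 111 FPKM in wt, 123 FPKM in cko1 and 82.0 FPKM in cko2, with the cko libraries on either side of wt.

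Of the genes of mitotic exit, which mark cyclins for destruction, Cdc20 was at 182 and 187 FPKM in wt and at 176 and 147 FPKM in cko (log2 difference -0.19, SE 0.15, adjusted p = 0.534), and Ube2c at 101 and 94.2 FPKM in wt and at 102 and 88.4 FPKM in cko (log2 difference -0.04, SE 0.15). The groups of Cdc20 did not overlap, and those of Ube2c did.

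Both cko libraries were above both wt libraries in 20 of the 56 genes (35.7%), beside 33.6% of all tested genes, and below them in 10 (17.9%), beside 18.0%. In the replication class 10 of 21 genes were above and 2 below, and in the mitosis class 6 of 25 were above and 5 below. After median-of-ratios scaling the counts were 5 above and 2 below in the replication class, and 1 above (Mki67) and 8 below in the mitosis class, while 24.6% of all genes were above and 25.8% below. The cko libraries differed from each other in these genes: cko1 was above cko2 in 46 of the 56 genes (82.1%), compared with 48.6% of all genes, and wt1 was above wt2 in 33 (58.9%), compared with 45.7% of all genes. The median of the replication class was above the wt mean by 0.35 in cko1 and by 0.09 in cko2, and that of the mitosis class was 0.10 above it in cko1 and 0.10 below it in cko2 (-0.10).

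**Figure D3:**
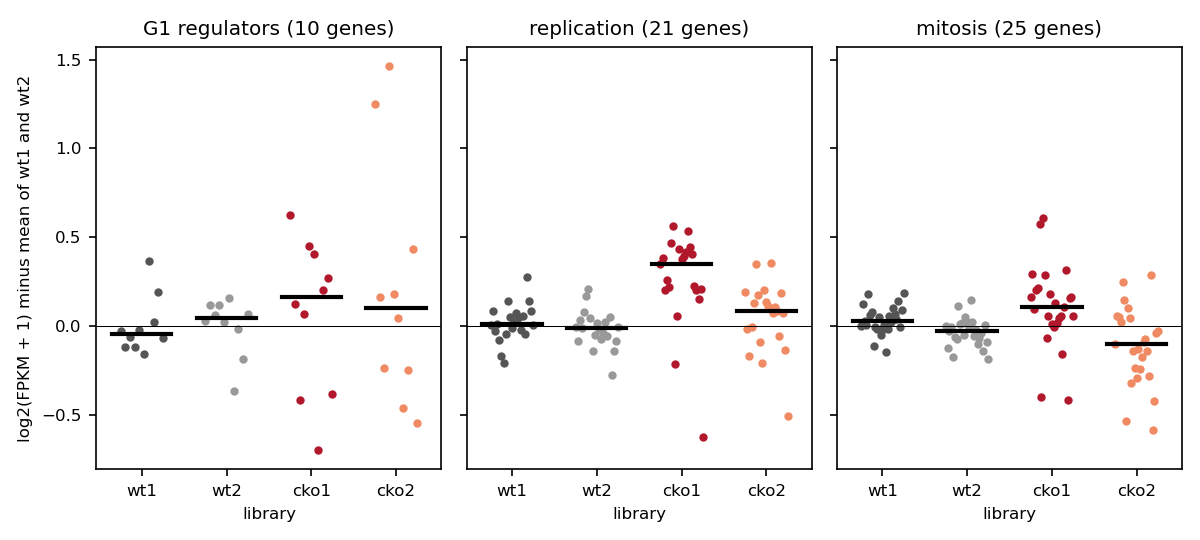
Level of each tested gene in each library as log2(FPKM + 1) minus the mean of wt1 and wt2, by class, with black lines at the medians. The replication genes of cko1 lie mostly above 0 with a median of 0.35, and the mitosis genes lie around 0.10 in cko1 and -0.10 in cko2.

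Set against each other within a library, replication and mitosis genes depend little on the scaling between libraries. Median-of-ratios scaling moved the values below by less than 0.005. The mean log2(FPKM + 1) of the 21 replication genes minus that of the 25 mitosis genes was -1.14 in wt1, -1.11 in wt2, -0.97 in cko1 and -0.96 in cko2. Mitosis genes had the higher mean level in every library, by less in both cko libraries, and the genotypes differed by 0.16 while the SD over 2 libraries was 0.02 in wt and 0.01 in cko. On a linear scale this is a ratio of 1.12 between the genotypes. With 2 libraries against 2, the smallest two-sided p of an exact permutation test is 0.333, and no other test was run on this single value. In medians of the gene differences, replication exceeded mitosis by 0.22. By role, these medians were 0.27 for licensing and helicase, 0.08 for the fork and 0.15 for deoxynucleotide supply. They were 0.17 for mitotic entry, -0.06 for spindle and segregation and -0.12 for mitotic exit. Mitotic entry was thus above the fork and deoxynucleotide supply, and the contrast did not separate every role of the classes.

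The contrast was larger for the Mcm genes than for the rest of the replication class. The mean of Mcm2 to Mcm7 minus that of the mitosis genes was -0.15 in wt1, -0.13 in wt2, 0.18 in cko1 and 0.12 in cko2, a change of 0.29. Without the 6 genes, the other 15 replication genes gave -1.54, -1.50, -1.43 and -1.39 in the same order, a change of 0.10. Restricted to genes with under 5% of their exonic bases shared with other genes (16 replication and 20 mitosis genes, a limit chosen after the values were seen), the change was 0.24. In each of these choices both cko libraries were above both wt libraries.

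Genes of the same processes outside the 57 gave a smaller contrast of the same sign. The mean of 45 other replication genes minus that of 72 other mitosis genes was -0.89 in wt1, -0.88 in wt2, -0.79 in cko1 and -0.75 in cko2, a change of 0.11. The median difference was 0.02 for these replication genes, with 4 higher and 2 lower at an unadjusted p under 0.05, and -0.11 for these mitosis genes, with 3 higher and 9 lower. It was 0.12 for 26 other G1 regulators, with 3 higher and 0 lower. Of all tested genes, 11.4% were higher and 4.95% lower. The shares were 8.89% and 4.44% for these replication genes, and 11.5% and 0% for these G1 regulators. For these mitosis genes they were 4.17% and 12.5%. The share of lower mitosis genes was thus above that of all genes, while the share of higher G1 regulators was about equal to that of all genes. Both the replication and the mitosis list outside the 57 thus had medians below that of all genes, 0.09.

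**Figure D4:**
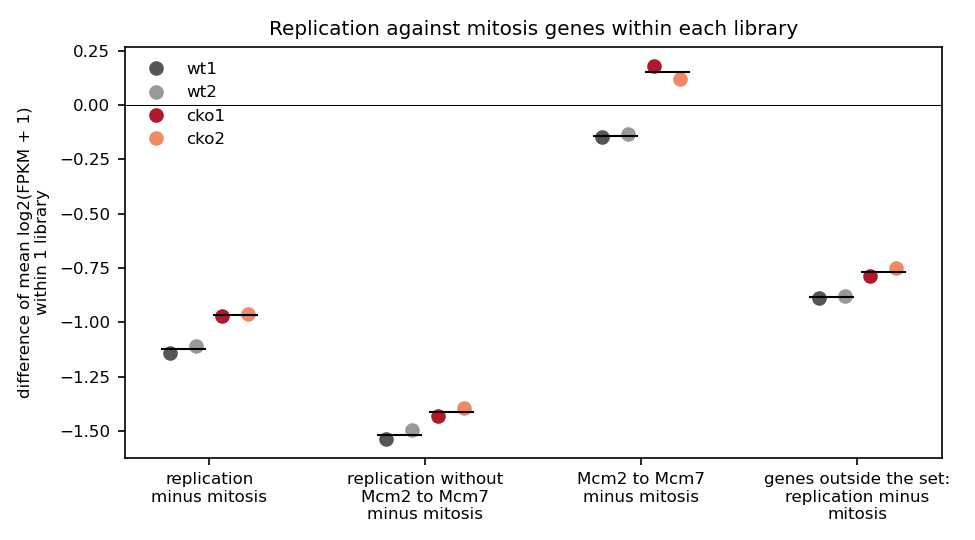
Difference between class means of log2(FPKM + 1) within each library, with black lines at the genotype means. In all 4 contrasts the cko libraries lie above the wt libraries, by 0.16 for replication minus mitosis, 0.10 without the Mcm genes, 0.29 for the Mcm genes and 0.11 for genes outside the set.

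Several named genes outside the 57 had larger differences than most of the 57. Among replication genes, Chaf1a, the large subunit of the chromatin assembly factor at the fork, was at 6.40 and 10.6 FPKM in wt and at 15.5 and 13.3 FPKM in cko (log2 difference 0.73, SE 0.25, adjusted p = 0.261). Prim2, the large primase subunit, had a difference of 0.57 (SE 0.18, adjusted p = 0.242). In the other direction, Rpa3, a subunit of the single-strand binding protein, was at 44.6 and 29.0 FPKM in wt and at 17.0 and 16.9 FPKM in cko (log2 difference -1.04, SE 0.23, adjusted p = 0.210). Gins4, of the same complex as Gins1 and Gins2, had a difference of -0.44 (SE 0.16, adjusted p = 0.271).

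Among mitosis genes, Wee1, the kinase that holds Cdk1 inactive, was at 1.42 and 1.80 FPKM in wt and at 2.73 and 3.24 FPKM in cko (log2 difference 0.61, SE 0.22, adjusted p = 0.270), and Lmnb1, a lamin of the nuclear envelope, had a difference of 0.72 (SE 0.23, adjusted p = 0.251). Knl1, a kinetochore scaffold, and Kif20b, a kinesin of cytokinesis, had differences of -0.59 (SE 0.17, adjusted p = 0.232) and -0.56 (SE 0.19, adjusted p = 0.254). Among G1 regulators, Btg1, an antiproliferative gene of resting cells, was at 14.1 and 19.0 FPKM in wt and at 25.9 and 44.6 FPKM in cko (log2 difference 1.01, SE 0.29, adjusted p = 0.230). Like Cdkn1a, it was highest in cko2. Cdk6, the D-cyclin kinase of blood progenitors, was at 8.03 and 7.82 FPKM in wt and at 13.1 and 12.9 FPKM in cko (log2 difference 0.65, SE 0.15, adjusted p = 0.212), with close replicates.

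**Figure D5:**
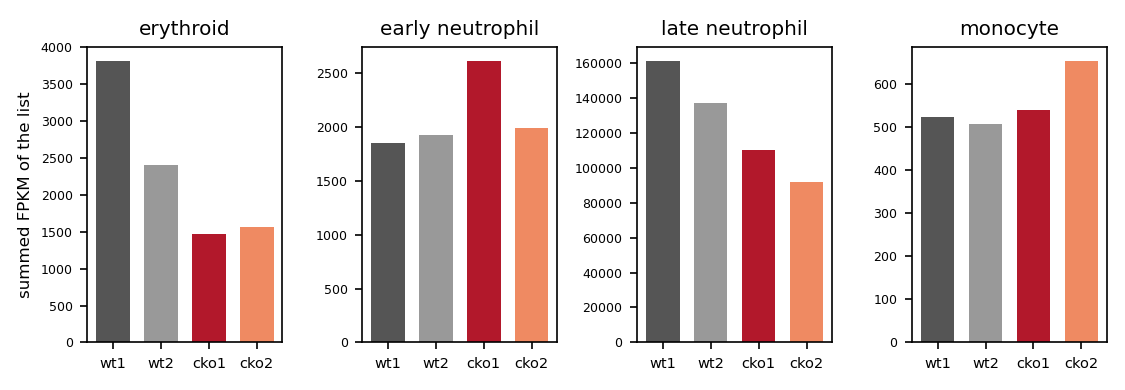
Summed FPKM of 4 marker lists in each library, with bars from 0 and a scale of its own for each list. Early neutrophil markers are highest in cko1 (2614 FPKM), erythroid and late neutrophil markers are lower in both cko libraries, and monocyte markers are highest in cko2 (652 FPKM).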

How the data were processed

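The 57 genes and all gene lists were chosen with earlier results of these data known. The authors deposited FPKM values (reads scaled by gene length and by counted reads, called RPKM in the study's methods) for 24706 genes, 1 library per file. The submitters' processing notes name Bowtie2 2.2.3, TopHat2 2.0.12, HTSeq 0.6.0 and mm9, although the gene positions match GRCm38, with 54 of the 57 genes identical to GENCODE M21. Settings for strand, multiply aligned reads and filters are not given in the sources used here.

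Groups followed the labels. Here, log2(FPKM + 1) of the 10779 genes that reached a mean of 1 FPKM entered a linear model of limma 3.58.1 (R 4.3.3), moderated by eBayes with its trend option and free of covariates. All 10779 p-values were adjusted together by the Benjamini-Hochberg method. Fold changes on this scale understate those of low genes. Since FPKM values are whole multiples of the value of 1 read, library totals of 17691505 to 22212407 reads were recovered. Of the values checked, from genes with 1 exon block, 99.94% to 99.95% lay near whole reads. Gene lengths were then chosen with a tolerance of at least 0.005 reads. By rule, genes are named if they belong to a fixed group of key regulators, had the largest difference in either direction of their role, or had an unadjusted p under 0.05. Further genes of the 57 are described beside them to fill out their role. These were not in the comparison of named genes under the alternatives. From the lists of genes outside the 57, the 2 largest differences in each direction with such a p are named, and Pdcd1 and Lyz2 are named as checks of the labels. Alternatives were quantile and median-of-ratios scaling, a pseudocount of 0.1, a filter at 5 FPKM or none, and eBayes without a trend. Others were marker removal, voom on recovered reads, a replicate block and each library left out in turn. In marker removal, erythroid and hepatocyte markers were taken out and each library was then rescaled to the same FPKM sum. The fit was tested on simulated data of 10482 genes for the cko against wt comparison, with calls at an adjusted p under 0.05. With the right sign, it called 185 of 186 genes given a log2 difference of 2. Another 36 calls were false, of which 6 had a mean of at least 10 reads. No tested gene of the 57 differed by that much, so the simulation does not show how often smaller differences would be called. Tables and figures were made with Python 3.11.15 and matplotlib 3.10.9.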

Additional observations from a re-analysis of the deposited data

How the results depend on the processing

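The count of genes with an unadjusted p under 0.05, 5 of 56, was 15 after removal of erythroid and hepatocyte markers, 3 with the replicate block, and 0 to 7 when each library was left out in turn. No source ties libraries with the same replicate number to each other (r of the replicate differences -0.16), and with the block 258 genes in all passed a log2 difference above 1 with an unadjusted p under 0.01, compared with 247. Crossing the numbers, chosen after seeing the data, gave 8 of 56 and 363 in all. That count of 247 was 126 at a minimum mean of 5 FPKM and 131 to 462 without single libraries. It was split into 203 higher and 44 lower, into 142 and 72 after median-of-ratios scaling, into 148 and 73 after quantile scaling, and into 351 and 17 after marker removal. By voom, 294 genes passed it, and 2 of 14255 passed a log2 difference of at least 1 with an adjusted p under 0.05. The median difference of the replication class, 0.19 as deposited, was 0.085 after median-of-ratios scaling and 0.094 after quantile scaling. It was 0.39 after marker removal and 0.085 to 0.35 without single libraries. That of the mitosis class was 0.18 after marker removal, -0.14 after median-of-ratios scaling and -0.10 to 0.10 without single libraries. Replication exceeded mitosis in medians by 0.24 with a pseudocount of 0.1, by 0.24 at a minimum of 5 FPKM and by 0.19 to 0.25 without single libraries. For 38 genes, named by the rule given above, 527 values under the alternatives were compared, and 11 changed sign. Ccnb1 was -0.045 and -0.022, and Top2a -0.057 and -0.041, after median-of-ratios and quantile scaling. Without single libraries, Top2a ranged from -0.041 to 0.16, with -0.031 without wt replicate 2, and Pcna ranged from -0.082 to 0.47 and Stmn1 from -0.42 to 0.15. After marker removal Cdc20 was 0.016, Gins1 0.046 and Stmn1 0.075. Other genes of the 57, outside these 38, also changed sign. Among them, after median-of-ratios and quantile scaling, Tk1 was -0.097 and -0.076, and Prim1 -0.072 and -0.079. Aurka was -0.088 and -0.088, Tpx2 -0.104 and -0.087, and Lig1 -0.031 and -0.00037. In the replication fork group 4 of 5 differences were positive as deposited, 2 of 5 after median-of-ratios and 1 of 5 after quantile scaling. The causes were not tested. Leaving out a library leaves 1 in its group, which is assumed to vary like the other group.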

Other observations

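The other cell type lists were also summed. Beside the counts below, 11.4% of all tested genes were higher and 4.95% lower at an unadjusted p under 0.05 in limma. Macrophage markers were at 385 and 263 FPKM in wt and at 265 and 447 FPKM in cko, with 1 of 9 tested markers higher and 0 lower at an unadjusted p under 0.05. Monocyte markers were at 522 and 507 FPKM in wt and at 538 and 652 FPKM in cko, with 3 of 8 higher and 0 lower. Hepatocyte markers were at 88.3 and 151 FPKM in wt and at 64.4 and 75.6 FPKM in cko, with 0 of 8 higher and 2 lower. B cell markers were at 52.9 and 67.5 FPKM in wt and at 34.5 and 44.8 FPKM in cko, with 0 of 6 higher and 2 lower. Markers of mast cells, basophils and eosinophils were at 255 and 133 FPKM in wt and at 99.2 and 103 FPKM in cko, with 0 of 5 higher and 1 lower. Markers of myeloid identity were at 336 and 373 FPKM in wt and at 531 and 467 FPKM in cko, with 2 of 5 higher and 0 lower. The lists of stem and progenitor cells, megakaryocytes, T and NK cells, and endothelial and stromal cells summed to between 10.2 and 25.5 FPKM in every library. Depth limits mainly the lowest genes. Fen1, with 0 reads in wt1 and wt2, has upper limits of 0.0558 and 0.0658 FPKM there, the value of 3 reads in each library. These limits are for counting error only. Genes on the opposite strand cover 84.2% of the Fen1 exonic bases, and their effect on its count was not tested. The fewest reads of a tested gene of the 57 in a library were 133, in E2f1.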
